A study of Homo sapiens with 13 samples.

Results

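Glycolysis was examined in SCLC cells through 34 genes that encode its enzymes, the carriers that bring glucose in and let lactate out, and the enzymes that stand at the entry and exit of the pathway. They were picked by gene symbol out of 56831 genes listed in each table, and they fall into 7 role groups. All 34 were found in both tables and passed the filter on low values, a level of 1 TPM (transcript per 1000000) or more in 3 or more libraries of a line, which SLC2A3 met in H146 only through its treated libraries. RNA was sequenced from H82 (SCLC-N) and H146 (SCLC-A), established human small cell lung cancer lines labelled as WT and grown in RPMI with serum. Untreated cells gave 3 libraries of each line. Cells kept for 14 days in 100 nM FHD-286, an inhibitor of the SWI/SNF ATPases SMARCA4 and SMARCA2 that was renewed during that time, gave 3 libraries of H82 and 4 of H146. The comparison of treated with untreated cells within each line asks what RNA changes follow loss of SMARCA4/2 activity in SCLC.

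Glycolysis splits glucose into pyruvate in the cytosol, with hexokinase trapping the sugar, phosphofructokinase committing it to breakdown and pyruvate kinase closing the sequence. Pyruvate is then reduced to lactate by lactate dehydrogenase and carried out of the cell, or is oxidised in mitochondria by pyruvate dehydrogenase, which the PDK kinases switch off. Several steps have isozymes with a tissue bias, such as the neuronal enolase ENO2, which serves in the clinic as a marker of neuroendocrine tumors, and many of these genes are known targets of HIF-1 and MYC.

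The values are TPM, a read count divided by gene length and scaled to the same sum in each library, so that levels can be compared between genes but the number of reads behind each value is unknown. The labels number the libraries without saying that they came from separate cultures, so the p-values measure only the spread between these libraries, which may be technical. In bulk RNA, fewer cells of a type and less RNA per cell cannot be told apart. Between 15554 and 16633 genes reached 1 TPM in treated H82 against 21227 to 21772 in untreated H82, and the range was 18778 to 19309 in treated and 17476 to 17965 in untreated H146. The mitochondrial genome supplied between 22.1% and 24.1% of TPM before and between 12.3% and 14.9% after treatment in H82, and between 7.56% and 8.86% and between 3.82% and 11.4% in H146. The neuroendocrine markers SYP, CHGA, INSM1 and NCAM1 were above 10 TPM in every untreated library of both lines, whereas NEUROD1 was at 224 to 234 TPM in untreated H82 and below 1 TPM in H146. Summed over 5 neuroendocrine markers, the level went from 610 to 660 TPM down to 178 to 577 TPM in H82 and from 1380 to 1680 TPM down to 983 to 1240 TPM in H146, and the 5 epithelial markers went from 1.57 to 3.61 TPM up to 9.17 to 114 TPM in H82 and from 2230 to 2400 TPM down to 575 to 647 TPM in H146. The neuroendocrine markers did not move together. In H82, SYP, CHGA and NEUROD1 were lower in every treated library, INSM1 went from 12.5 to 15.8 TPM up to 32.1 to 296 TPM, and NCAM1 overlapped. In H146, INSM1 made up most of the sum, at 1140 to 1405 TPM untreated and 758 to 1018 TPM treated. SYP, CHGA, NEUROD1 and NCAM1 overlapped between the groups there. The sum of 5 leukocyte markers stayed at or below 7.48 TPM in H82 and 40.2 TPM in H146, and that of 3 endothelial markers at or below 0.501 and 2.62 TPM, and both moved with treatment in either line. The leukocyte sum went from between 3.53 and 7.48 TPM to between 0.102 and 0.958 TPM in H82 and from between 11.2 and 20 TPM to between 23 and 40.2 TPM in H146, and the endothelial sum was lower in treated cells of both lines. The sum of 5 fibroblast markers went from between 1.7 and 2.5 TPM to between 7.92 and 33.3 TPM in H82 and from between 6.52 and 8.64 TPM to between 12.6 and 19.6 TPM in H146. The sum of 3 erythroid markers went from between 1.61 and 2.94 TPM to at most 0.608 TPM in H82 and from between 14.6 and 34.9 TPM to between 0.396 and 6.58 TPM in H146. Treated H82 replicate 2 stood apart from both other treated H82 libraries, with INSM1 at 296 TPM and KRT19 at 50.2 TPM where those had at most 34 and 1.43 TPM. EPCAM and KRT8 were also higher in replicate 2, at 32.8 and 23.9 TPM against at most 3.08 and 6.67 TPM. The part of these marker changes in the results was not tested.

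In untreated H82, the most abundant of these RNAs was ENO1, the widely expressed enolase, at 3022 ± 194 TPM (SD, n = 3), followed by pyruvate kinase PKM at 1376 ± 62.3 TPM and by both lactate dehydrogenases, LDHB at 936 ± 18.3 TPM and LDHA at 776 ± 29.2 TPM. In untreated H146 the order was different, with GAPDH at 2860, 2573 and 2669 TPM and the isomerase TPI1 at 1004 ± 70.2 TPM (SD, n = 3) ahead of ENO1 at 675 ± 33.0 TPM. The lines differed most in LDHB (ENSG00000111716.14, chromosome 12, 21635342 to 21757857, minus strand), the subunit that favors the lactate-to-pyruvate direction: untreated H82 held 921, 956 and 931 TPM, untreated H146 2.36, 1.99 and 2.19 TPM, a ratio of 429 between the means. The neuronal glucose carrier SLC2A3 was 54.6-fold, the kinase PDK3 8.69-fold and the lactate carrier SLC16A1 6.77-fold higher in untreated H82. In the other direction, PFKP was 4.45-fold, PCK2 4.30-fold, GAPDH 3.92-fold, PDK4 3.72-fold and HK1 3.24-fold higher in untreated H146. These ratios between the lines come from separately made tables with 3 untreated libraries each and were not tested. ALDOA, the aldolase of most tissues, was listed at only 2.05 to 3.67 TPM in untreated H82 and 8.96 to 11.2 TPM in untreated H146, and 42.8% of its exon bases are shared with another gene on the same strand in the annotation used here, as are 33.4% of those of LDHB, so the values of both are uncertain.

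Upstream sequence was taken from RefSeq (GRCh38.p14) for 31 of the 34 genes, without SLC2A3, SLC16A1 and PFKFB2. The letters searched were ACGTG, the core of the HIF response element, on both strands. The E-box CACGTG, which MYC and the ChREBP family bind, contains the core once on each strand and so counts there as 2 matches. Of 62 windows of the 250 bases before a start of these genes, 22 (35.5%) held ACGTG against 18.5% of all 35116 windows, and 8 (12.9%) held CACGTG against 6.34% of all. The windows of LDHA (the richest, with 5 matches), PGK1 and SLC16A3 are shown beside that of PDK4, which has none, because LDHA and PGK1 rose and PDK4 fell in H146 and SLC16A3 varied most between treated H82 libraries. PGK1 and PDK4 have 1 window each. The window shown is the 1 of 2 for LDHA and the 1 of 5 for SLC16A3 that holds the letters, and the other windows of these genes do not hold them. Capitals mark ACGTG on either strand, and each line reads 5′ to 3′ on the gene's strand and ends before the first exon of that start. The listed region of PGK1 and of SLC16A3 begins further upstream, where other starts of these genes lie.
LDHA, chr11:18394313-18394559, plus strand: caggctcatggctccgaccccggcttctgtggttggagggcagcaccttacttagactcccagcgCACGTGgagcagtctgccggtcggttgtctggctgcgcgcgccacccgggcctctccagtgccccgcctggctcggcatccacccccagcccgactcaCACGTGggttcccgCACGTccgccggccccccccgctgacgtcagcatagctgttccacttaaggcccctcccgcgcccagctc
PGK1, chrX:78103998-78104247, plus strand: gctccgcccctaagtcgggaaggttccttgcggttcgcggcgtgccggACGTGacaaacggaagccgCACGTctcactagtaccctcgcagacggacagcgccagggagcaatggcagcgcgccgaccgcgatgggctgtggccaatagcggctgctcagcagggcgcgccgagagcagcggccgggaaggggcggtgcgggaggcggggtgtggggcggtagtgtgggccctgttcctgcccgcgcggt
SLC16A3, chr17:82228792-82229041, plus strand: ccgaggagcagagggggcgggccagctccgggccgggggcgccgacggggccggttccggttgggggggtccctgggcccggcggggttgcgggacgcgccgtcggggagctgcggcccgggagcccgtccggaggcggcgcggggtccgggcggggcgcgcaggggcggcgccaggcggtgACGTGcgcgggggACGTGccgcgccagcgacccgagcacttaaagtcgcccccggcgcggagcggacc
PDK4, chr7:95596517-95596766, minus strand: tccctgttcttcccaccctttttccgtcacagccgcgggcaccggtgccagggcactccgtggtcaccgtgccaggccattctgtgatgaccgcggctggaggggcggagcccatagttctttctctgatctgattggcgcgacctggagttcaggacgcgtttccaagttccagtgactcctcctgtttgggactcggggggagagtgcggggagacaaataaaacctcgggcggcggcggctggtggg
Such a match is a run of letters and not a measured binding site. Among the 19 genes with ACGTG in a window, 7 rose and 3 fell in H146, with a median log2 fold change of 0.20, and among the 12 without it 4 rose and 3 fell, with a median of 0.26. Of all tested genes in H146, 32.5% rose and 15.5% fell. In H82 the medians were -0.11 and 0.11.

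In H82, FHD-286 lowered the RNA of 3 of the 34 genes and raised 0 at an adjusted p under 0.05 in limma (4 and 2 at an unadjusted p under 0.05), while 45.5% of all tested genes were lower and 13.1% higher. The 3 were SLC2A3, ENO2 and ENO3. The median log2 fold change of the 34 was -0.06, where the 19770 genes of the fit had -0.56. Scaling the libraries by the median of ratios, which sets each library by the middle gene's ratio to a common reference, moved the median of all genes to -0.14 and gave 3 lower and 8 higher genes among the 34, with 32.9% of all genes lower and 24.2% higher. The same 3 were the lower ones, and the 8 were HK1, GAPDH, LDHB, PDHA1, PDHB, PDK2, PDK4 and PC.

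SLC2A3 (ENSG00000059804.17, chromosome 12, 7919230 to 8019007, minus strand), the high-affinity glucose carrier typical of neurons, measured 24.1, 27.0 and 24.4 TPM in untreated and 8.13, 13.4 and 10.0 TPM in treated H82. Every treated library lay below every untreated one, and the log2 fold change was -1.21 (SE 0.20, adjusted p = 0.00212). ENO2 (ENSG00000111674.9, chromosome 12, 6913745 to 6923698, plus strand) went from 170.4, 172 and 175 TPM to 77.1, 87.9 and 77.4 TPM, a log2 fold change of -1.09 (SE 0.13, adjusted p = 0.000549). Its treated values lay close together in the 3 libraries. ENO3 (ENSG00000108515.18, chromosome 17, 4948092 to 4957131, plus strand), the muscle enolase, went from 40.5, 35.5 and 47.3 TPM to 16.4, 16.5 and 12.4 TPM, a log2 fold change of -1.39 (SE 0.18, adjusted p = 0.000832). Under all 17 alternatives run, these 3 kept their call.

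The treated H82 libraries did not move together over the rest of the pathway. The TPM summed over the 16 genes of the steps from hexokinase to pyruvate kinase was 7690, 7026 and 7749 in the untreated libraries and 3944, 14805 and 11203 in treated replicates 1, 2 and 3. Replicate 1 lay below, and replicates 2 and 3 above, all untreated libraries.

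**Figure D1:**
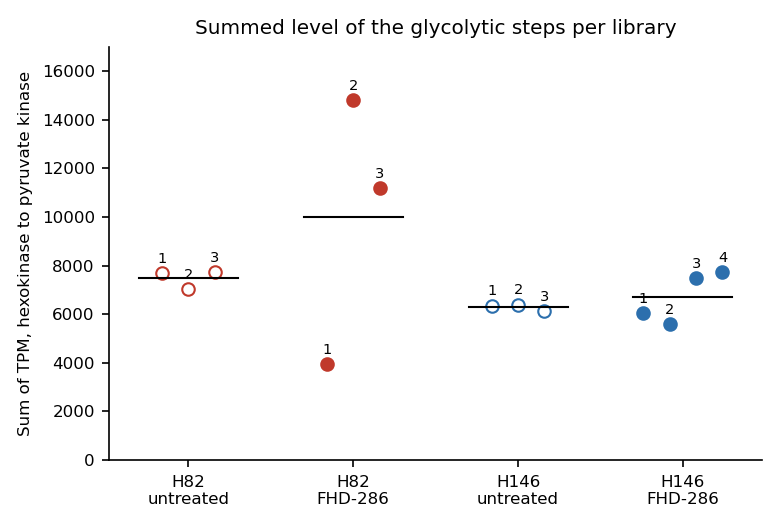
Sum of TPM over the 16 genes of the steps from hexokinase to pyruvate kinase in each library (y axis, TPM), by line and treatment on the x axis, with the replicate number beside each point and the mean as a bar. The treated H82 libraries lie at 3944, 14805 and 11203 against 7026 to 7749 untreated, and H146 stays between 5583 and 7720.

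Over single genes the same split was seen. In treated replicate 1, 27 of the 34 genes were below all untreated libraries and 4 above. In replicate 2, 21 were above and 9 below, and in replicate 3, 20 were above and 13 below. Over all genes, replicates 1, 2 and 3 were alike in this count, with 64.4%, 60.9% and 60.6% of genes below and 24.4%, 27.5% and 27.2% above. With the libraries scaled by the median of ratios, 12, 30 and 27 of the 34 were above and 19, 3 and 7 below. On that scale, 39.1%, 40.4% and 39.9% of all genes were above and 49%, 48.5% and 47.7% below. A set of 14 of the 34 genes (41.2%) lay below all untreated libraries in replicate 1 and above them in both other replicates, a pattern that 5.26% of all genes had. It was noticed in these values and was not tested. The 14 were HK2, GPI, PFKP, TPI1, GAPDH, PGK1, PGAM1, ENO1, PKM, LDHA, PFKFB3, PFKFB4, PDHA1 and PDHB. The spread of the 34 was wide in treated H82, with a median SD of 0.671 on the log2 scale against 0.315 for all genes, whereas in untreated H82 it was 0.0832 against 0.167.

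LDHA (ENSG00000134333.15, chromosome 11, 18394560 to 18408425, plus strand), the subunit that favors lactate formation, shows the split: it measured 750.1, 808 and 771 TPM in untreated H82 and 145, 1371 and 899 TPM in treated replicates 1, 2 and 3. PKM (ENSG00000067225.21, chromosome 15, 72199029 to 72231819, minus strand) measured 1420, 1305 and 1404 TPM and then 527, 2916 and 2575 TPM. For both, replicate 1 was far below and replicates 2 and 3 were above the untreated libraries, so that the log2 fold changes of -0.46 (SE 0.76, adjusted p = 0.63) and 0.20 (SE 0.63, adjusted p = 0.8) average values of opposite sign. SLC16A3 (ENSG00000141526.18, chromosome 17, 82217934 to 82261129, plus strand), the carrier that exports lactate from glycolytic cells, had the widest spread of the 34, with 34.5, 24.6 and 34.5 TPM untreated and 1.45, 34.7 and 14.7 TPM treated. PFKFB3, which makes the phosphofructokinase activator fructose 2,6-bisphosphate, measured 31.2, 27.7 and 29.4 TPM and then 13.5, 127 and 66.3 TPM. GAPDH, the oxidative step in mid-pathway, measured 721, 619.7 and 728 TPM and then 543, 2226 and 1444 TPM. PCK2, the mitochondrial enzyme that turns oxaloacetate into phosphoenolpyruvate, was the only one of the 34 with the opposite split, at 48.3, 38.8 and 47.9 TPM untreated and 117, 30.1 and 15.6 TPM treated, a pattern that 2.73% of all genes had.

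Without treated replicate 1, 4 of the 34 were lower and 14 higher (52.2% and 18.4% of all genes), with LDHA at 0.52 (SE 0.18, adjusted p = 0.0383), PKM at 0.99 (SE 0.10, adjusted p = 0.000401) and GAPDH at 1.38 (SE 0.19, adjusted p = 0.00134). Without treated replicate 2, 6 were lower and 0 higher (42.6% and 9.03% of all genes), and SLC16A3, ALDOC and PDK1 joined the 3 lower genes. Without replicate 1 and with the median of ratios, a setting added after the values had been seen, 3 were lower and 24 higher (38.6% and 31.2% of all genes). Replicate 2, with its own high INSM1, KRT19 and MYCN, and replicate 3, without them, both lay on the high side. MYCN, from the list of MYC-type regulators, measured 1.97, 61.8 and 1.27 TPM in treated replicates 1, 2 and 3 and 2.95 to 3.59 TPM untreated. The part of these differences in the split was not tested.

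**Figure D2:**
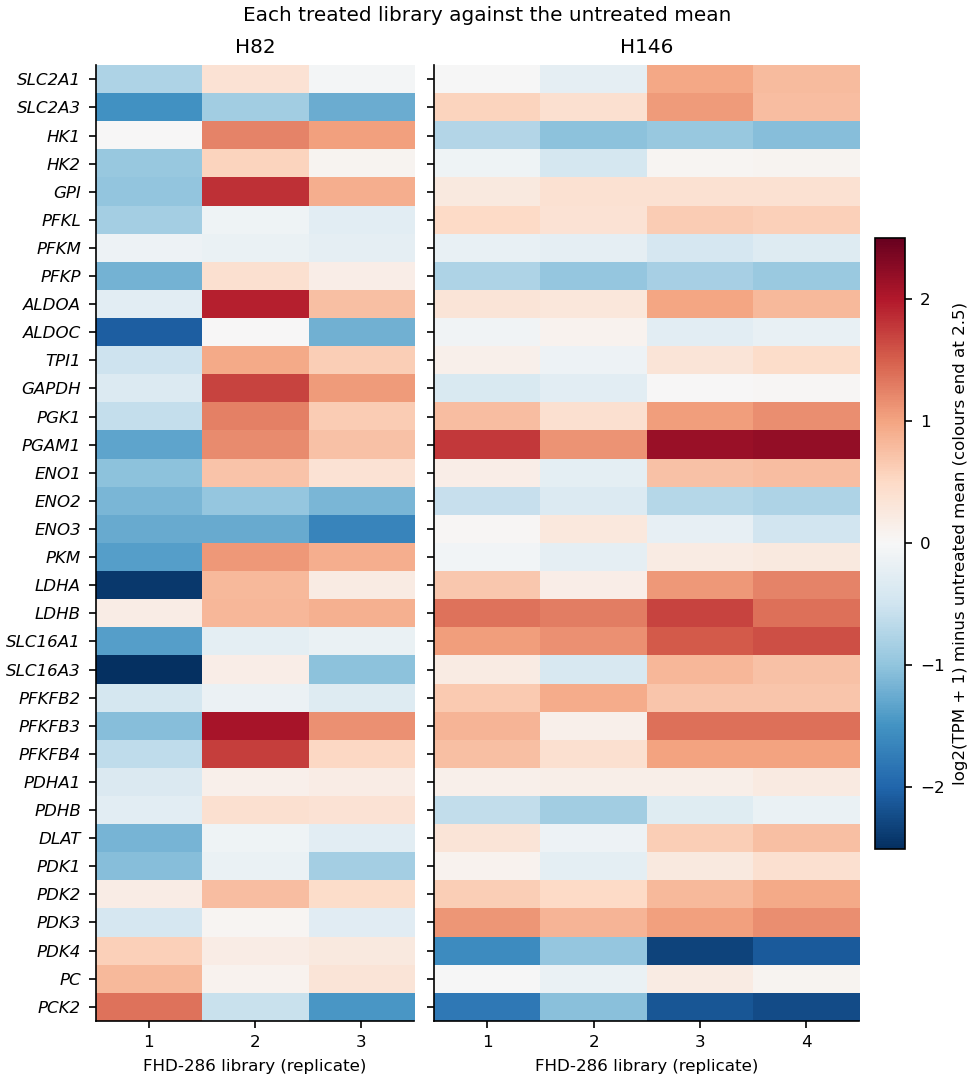
Each treated library against the mean of the untreated libraries of its line, in log2(TPM + 1), with the 34 genes as rows in pathway order and the libraries as columns (red above, blue below). In H82 replicate 1 is mostly blue and replicates 2 and 3 mostly red, with LDHA at -2.41, 0.82 and 0.21, whereas ENO2, ENO3 and SLC2A3 are blue in all 3.

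The other genes of H82 gave no call. Among the upper steps, HK1, the hexokinase of brain and most tissues, measured 39.8, 38.7 and 37.0 TPM and then 38.5, 91.9 and 79.5 TPM, with no call in the main comparison, and was called higher with the median of ratios (1.24, adjusted p = 0.00962), with quantile normalization, with library weights and without treated replicate 1, where the log2 fold change was 1.13 (SE 0.09, adjusted p = 0.000243). LDHB was the 1 gene of the 34 above all untreated libraries in each treated library, at 1058, 1675 and 1732 TPM, and its log2 fold change of 0.63 (SE 0.24, adjusted p = 0.0592) missed the threshold but passed it with the median of ratios (1.13, adjusted p = 0.00499). PFKM, SLC16A1, PFKFB2, DLAT and PDK1 lay below all untreated libraries in each treated library without passing the test, with log2 fold changes from -0.69 to -0.17. In all, 9 of the 34 showed separate ranges for treated and untreated libraries, as 67.8% of all genes did. SLC2A1, the general glucose carrier, measured 74.6 to 165 TPM treated against 123 to 134 untreated, and HK2, the inducible hexokinase, 70.3 to 202 against 135 to 139. GPI, PFKL, PFKP, ALDOA, ALDOC and TPI1 had log2 fold changes from -1.08 to 0.82. The lower steps PGK1, PGAM1 and ENO1 stood at 0.44, 0.20 and 0.02, PFKFB4 at 0.54, the dehydrogenase subunits PDHA1 and PDHB at -0.02 and 0.17, the kinases PDK2, PDK3 and PDK4 at 0.47, -0.22 and 0.34, and pyruvate carboxylase PC at 0.40.

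In H146, 20 of the 34 genes changed: 14 rose and 6 fell, where 32.5% of all 19585 tested genes rose and 15.5% fell. The risers included 3 of the 4 genes of the lactate group (LDHA, LDHB and SLC16A1, not SLC16A3), the 3 fructose 2,6-bisphosphate enzymes among the 34 and 2 pyruvate dehydrogenase kinases. The fallers were HK1, PFKP, ENO2, PDHB, PDK4 and PCK2. The median log2 fold change of the 34 was 0.34, that of all genes 0.25, and treated and untreated ranges were separate for 21 of the 34 and for 52.9% of all genes. With the median of ratios, the median of all genes was -0.02, and 9 of the 34 were higher and 9 lower, with 21.3% of all genes higher and 25.1% lower. GPI, PFKL, ALDOA, LDHA and PFKFB3 then missed the threshold, and PFKM, ALDOC and GAPDH were called lower.

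Among the upper steps, PFKP and PFKL moved in opposite directions, and of the hexokinases only HK1 was called. Both glucose carriers had a positive log2 fold change. Values in parentheses here are the log2 fold change with its SE and adjusted p. HK1 (ENSG00000156515.25, chromosome 10, 69269984 to 69401884, plus strand) measured 128, 134 and 112 TPM untreated and 74.5, 60.7, 63.8 and 59.3 TPM in treated replicates 1 to 4. No treated library reached an untreated one, and HK1 fell with a log2 fold change of -0.94 (SE 0.12, adjusted p = 0.00061), while HK2 measured 82.6 to 128 and 74.5 to 107 TPM and gave -0.11 (SE 0.18, adjusted p = 0.649). PFKP (ENSG00000067057.19, chromosome 10, 3066333 to 3137718, plus strand), the platelet-type phosphofructokinase and the main one of untreated H146, went from 294, 333 and 267 TPM to 173, 151, 167 and 156 TPM and fell as well (-0.87, SE 0.12, adjusted p = 0.000646). The liver-type PFKL moved the other way, from 91.5 ± 4.17 to 132 ± 11.7 TPM (SD, n = 3 and 4; 0.52, SE 0.11, adjusted p = 0.00591), though it missed the threshold with the median of ratios (0.20, adjusted p = 0.132). The muscle-type PFKM stood between them at -0.29 (SE 0.11, adjusted p = 0.0554). SLC2A3 rose from 0.486, 0.498 and 0.397 TPM to 1.16, 0.934, 2.07 and 1.48 TPM (0.70, SE 0.20, adjusted p = 0.0212). It lost its call when any 1 untreated library was left out, and it no longer met the filter without treated replicate 1, 3 or 4. SLC2A1 measured 43.5, 37.2, 87.0 and 76.8 TPM against 40.1 to 46.0 untreated and gave 0.38 (SE 0.29, adjusted p = 0.297). GPI and ALDOA rose by 0.35 and 0.61 on the log2 scale but lost the call without untreated replicate 1 or 3 or treated replicate 3 or 4, ALDOA also without untreated replicate 2, and ALDOC and TPI1 gave -0.11 and 0.20 without a call.

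The largest rise among the lower steps was that of PGAM1 (ENSG00000171314.9, chromosome 10, 97426191 to 97433444, plus strand), the phosphoglycerate mutase. It measured 122, 164 and 121 TPM untreated and 459, 294, 599 and 622 TPM treated, and each treated library was above each untreated one (1.81, SE 0.26, adjusted p = 0.000903). Its near-identical copy PGAM4 was listed between 0 and 1.05 TPM in H146. PGK1 (ENSG00000102144.15, chromosome X, 77910739 to 78129295, plus strand), the first ATP-yielding kinase of the pathway, rose from 200.2, 225 and 195 TPM to 355, 271, 429 and 462 TPM (0.85, SE 0.19, adjusted p = 0.00645). ENO2 fell from 317, 315 and 298 TPM to 207, 243, 188 and 182 TPM (-0.60, SE 0.13, adjusted p = 0.00541) and was the 1 gene of the 34 lower in both lines. GAPDH, ENO1, ENO3 and PKM, at -0.15, 0.36, -0.10 and 0.04, gave no call. As a sum, the steps from hexokinase to pyruvate kinase stood at 6354, 6398 and 6119 TPM untreated and at 6047, 5583, 7504 and 7720 TPM treated, so that the groups overlapped.

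In the lactate group, SLC16A1 (ENSG00000155380.13, chromosome 1, 112911847 to 112957593, minus strand), a carrier that moves lactate with a proton in either direction, rose from 49.0, 52.0 and 43.0 TPM to 99.8, 107, 141 and 148 TPM (1.33, SE 0.17, adjusted p = 0.000451). LDHB rose from 2.36, 1.99 and 2.19 TPM to 7.11, 6.71, 9.28 and 7.25 TPM (1.42, SE 0.16, adjusted p = 0.000321), which left it far below the 921 to 956 TPM of untreated H82. LDHA rose from 301, 329.7 and 276 TPM to 479, 338, 644 and 714 TPM (0.79, SE 0.24, adjusted p = 0.027). Treated replicate 2 was the lowest and replicates 3 and 4 the highest, and the LDHA call was lost without any 1 untreated library, without treated replicate 3 or 4, and with the median of ratios. SLC16A3 measured 11.2, 7.10, 17.8 and 16.8 TPM against 7.47 to 11.3 untreated (0.34, SE 0.30, adjusted p = 0.378). The 3 enzymes that set fructose 2,6-bisphosphate all rose: PFKFB2, the heart form, by 0.75 (SE 0.16, adjusted p = 0.00509), PFKFB3 by 0.93 (SE 0.30, adjusted p = 0.0312) and PFKFB4, the testis form, by 0.79 (SE 0.19, adjusted p = 0.00868). For PFKFB3 the treated values of 30.3, 18.0, 44.2 and 44.1 TPM overlapped the untreated 14.7 to 19.3, and its call was lost without any 1 of the libraries other than treated replicate 2.

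The pyruvate dehydrogenase kinases moved in opposite directions in H146. PDK4 (ENSG00000004799.8, chromosome 7, 95583499 to 95596516, minus strand), a kinase known for induction by fasting, fell from 20.9, 24.9 and 18.0 TPM to 6.39, 10.3, 3.47 and 4.14 TPM (-1.74, SE 0.31, adjusted p = 0.00256). PDK3 (ENSG00000067992.17, chromosome X, 24465244 to 24550466, plus strand) rose from 3.40, 3.20 and 2.98 TPM to 7.99, 6.60, 7.48 and 8.32 TPM (1.03, SE 0.15, adjusted p = 0.00097) and PDK2 from 4.77, 4.62 and 4.65 TPM to 7.70, 7.01, 8.90 and 9.95 TPM (0.71, SE 0.16, adjusted p = 0.00711), while PDK1 gave 0.13 (SE 0.17, adjusted p = 0.566). Of the exon bases of PDK2, 38.6% face a gene on the other strand, and whether the counting used strand is not given in the sources used here. PDHB, the beta subunit of the dehydrogenase, fell from 69.8, 75.5 and 63.6 TPM to 45.3, 37.6, 55.9 and 61.8 TPM (-0.49, SE 0.18, adjusted p = 0.0496). That call stood at the threshold and was lost without any 1 library other than treated replicate 4. PDHA1 and DLAT, the alpha subunit and the acetyltransferase, gave 0.15 (SE 0.10, adjusted p = 0.226) and 0.39 (SE 0.21, adjusted p = 0.154). PCK2 (ENSG00000100889.12, chromosome 14, 24094053 to 24110598, plus strand) had the largest fall of the 34, from 196, 167 and 217 TPM to 55.2, 92.8, 43.1 and 40.1 TPM (-1.80, SE 0.27, adjusted p = 0.00115), and PC measured 20.9 to 22.7 and 19.2 to 25.1 TPM (0.02, SE 0.13, adjusted p = 0.903).

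**Figure D3:**
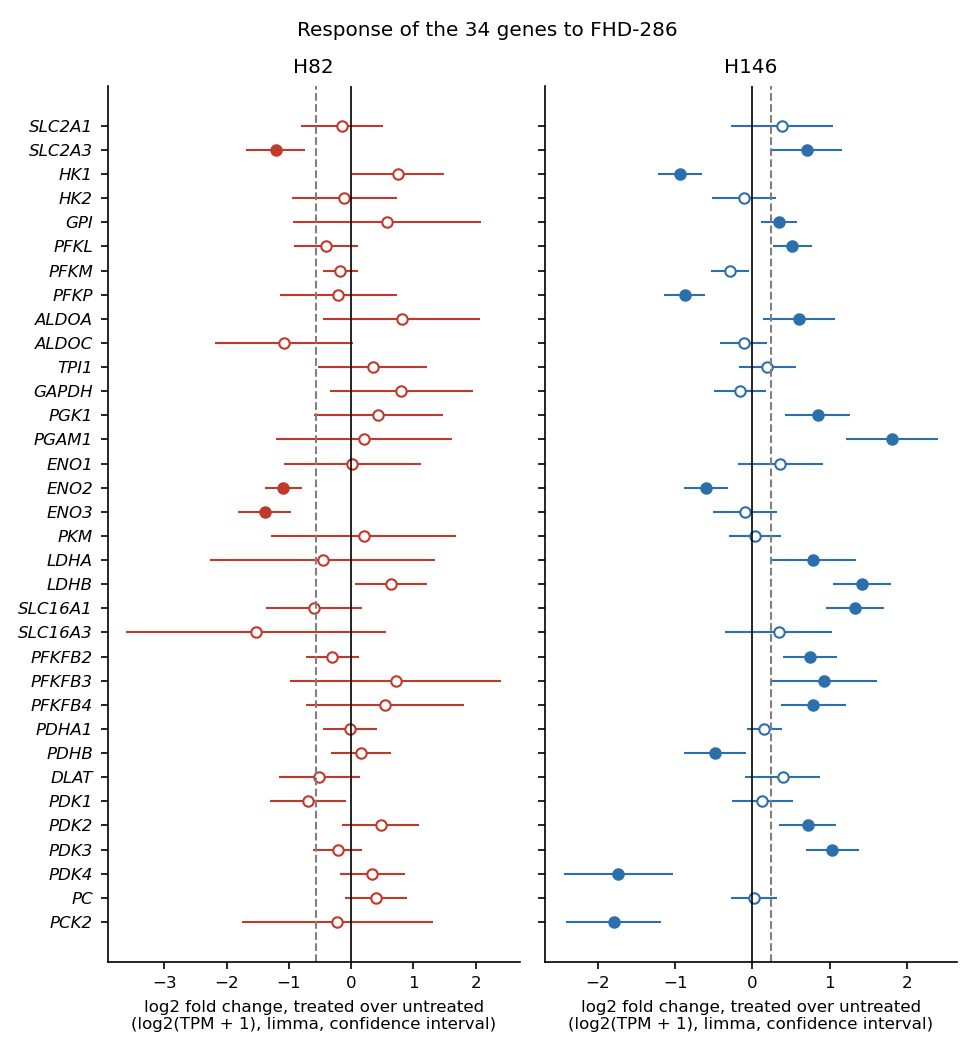
Log2 fold change of each of the 34 genes, treated over untreated, on the log2(TPM + 1) scale with the confidence interval of the limma fit, in H82 (left) and H146 (right). Filled points passed an adjusted p of 0.05 (3 in H82, 20 in H146), and the dashed line, at -0.56 in H82 and 0.25 in H146, marks the median over the whole fit.

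Of the 20 calls in H146, 11 were kept under all alternatives run: HK1, PFKP, ENO2, PDK4 and PCK2 as lower, and PGK1, PGAM1, LDHB, SLC16A1, PFKFB2 and PDK3 as higher. With treated replicate 2 left out, 17 of the 34 were higher, as were 39.3% of all genes. Without treated replicate 3 or without replicate 4, 9 of the 34 were higher (26.8% and 28.9% of all genes). Leaving out untreated replicate 1, 2 or 3 gave 9, 10 and 9 higher genes among the 34 and 24.5%, 26.2% and 22.6% among all genes.

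The composition of each enzyme family does not depend on the scaling between libraries, since it is a share of TPM within a library. It was described without a test over 9 families. HK1 made up between 21.4% and 22.7% of hexokinase TPM (HK1 with HK2) in untreated and between 31.2% and 35.7% in treated H82, whereas in H146 it went from between 51.3% and 57.6% to between 35.7% and 44.9%. The HK1 share moved in opposite directions in the lines. Among phosphofructokinases of H146, PFKP went from between 60.1% and 63.9% to between 42.7% and 45.6% and PFKL from between 18.2% and 20.9% to between 33.9% and 38.1%. In H82 PFKL was at between 29.9% and 31.6% and between 26.3% and 27.5%, and the PFKP share overlapped. ENO2 made up between 30.1% and 30.9% of enolase TPM in untreated and between 13.4% and 28.7% in treated H146, and between 5.13% and 5.73% and between 1.73% and 4.90% in H82, so its share was lower in every treated library of both lines. SLC2A3 went from between 15.4% and 18.0% of the glucose carrier pair to between 7.51% and 9.82% in H82 and from between 0.980% and 1.07% to between 1.89% and 2.60% in H146. LDHB accounted for between 54.2% and 55.1% of lactate dehydrogenase TPM in untreated H82 and for 87.9%, 55.0% and 65.8% in treated replicates 1, 2 and 3, and in H146 for between 0.601% and 0.789% untreated and 1.46% ± 0.386 (SD, n = 4) treated. SLC16A3 took between 13.2% and 19.7% of the lactate carrier pair in untreated and between 6.20% and 11.2% in treated H146. In the kinase family of H146, PDK4 went from between 40.0% and 44.9% to between 7.57% and 24.6% and PDK3 from between 5.79% and 6.66% to between 15.7% and 17.7%. In H82 PDK3 held between 41.6% and 44.6% and between 43.0% and 45.0%, with overlap, while PDK4 stood at between 7.32% and 9.72% and between 9.74% and 19.3%. PDK2 went from between 8.35% and 10.4% to between 16.7% and 19.5% in H146, and PDK1, at between 40.9% and 44.3% untreated and between 43.0% and 56.6% treated with overlap, had the largest share of the family in every treated library. At least 1 share had separate ranges in 6 of the 9 families in H82 and in 8 of 9 in H146. Counted singly these were 13 and 16 of 23 shares, but in the 5 families of 2 genes both shares add up to the whole, so that each separation there counts 2 times. By TPM, a different measure, 67.8% of all genes in H82 and 52.9% in H146 had separate ranges. Shares in other gene families were not counted.

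**Figure D4:**
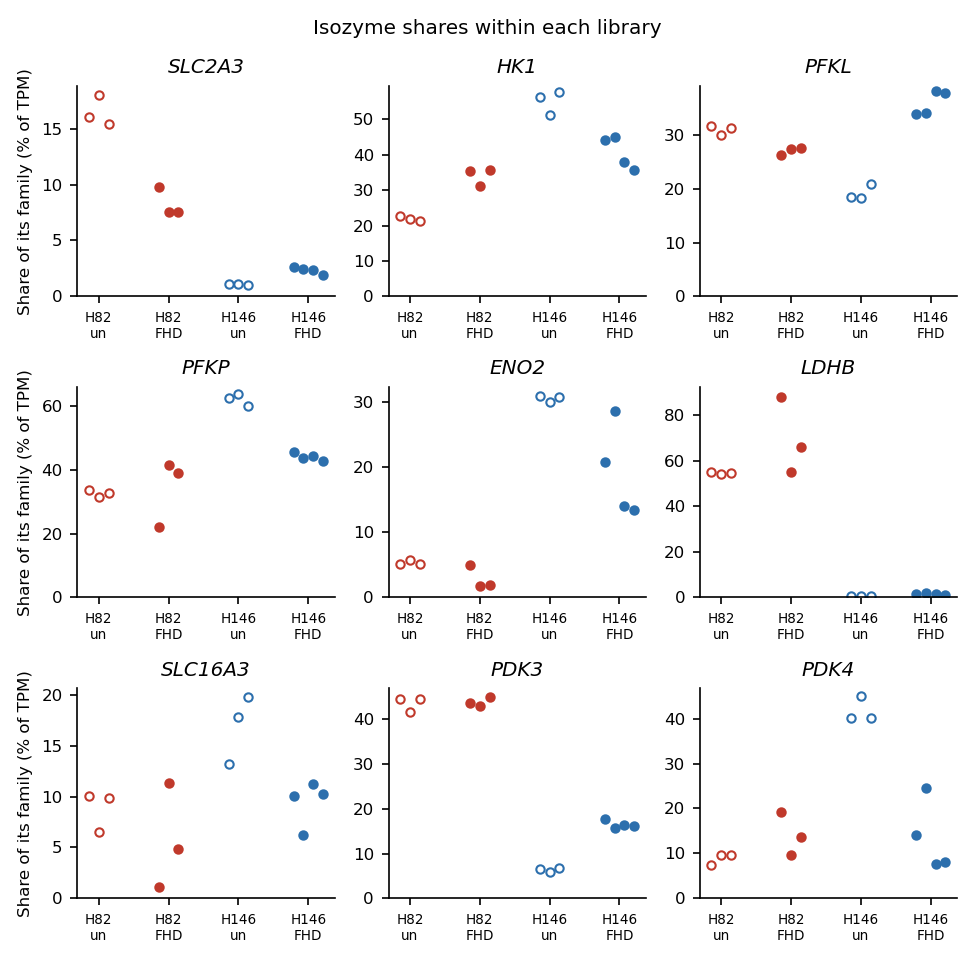
Share of 9 genes in the TPM of their enzyme family (y axis, percent) in each library, with open points untreated and filled points treated, H82 in red and H146 in blue. The HK1 share goes up in H82 (21.4% to 22.7%, then 31.2% to 35.7%) and down in H146 (51.3% to 57.6%, then 35.7% to 44.9%), and in H146 the PDK4 share goes down and the PDK3 share up.

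The responses of the lines were compared by the interaction of line and treatment over all 13 libraries, a comparison of 2 within-table differences. Of the 34 genes, 12 differed: 10 had a lower response in H82 than in H146, where 46% of all 24374 genes did, and 2 a higher one, where 13.3% did. With the median of ratios, 3 were lower (30.8% of all genes) and 10 higher (25.5%). HK1 (difference, H82 minus H146, 1.70, SE 0.34, adjusted p = 0.00102) and PDK4 (2.08, SE 0.41, adjusted p = 0.000974) fell in H146 and gave no call in H82. SLC2A3 was lower in H82 and higher in H146 (-1.91, SE 0.28, adjusted p = 0.000129), the 1 gene with calls of opposite direction. In H146 it was at 0.397 to 0.498 TPM untreated and passed the filter only through its treated libraries. Its call there was lost with quantile normalization and without any 1 untreated library, so the opposite direction is uncertain. SLC16A1 (-1.93, SE 0.37, adjusted p = 0.000827) and PDK3 (-1.25, SE 0.20, adjusted p = 0.000235) rose only in H146 by their own tests. These 5 kept their difference with the median of ratios, at 2.50, 2.79, -1.30, -1.12 and -0.50 in that order. PFKL, ENO2, ENO3, LDHB, PFKFB2, DLAT and PDK1 also differed, by -1.29 to -0.49, and none of these 7 did with the median of ratios, where ENO2 changed sign. The median difference over all genes was -0.75, and -0.17 with the median of ratios. For PGAM1 and PCK2, with large changes in H146, the difference of -1.61 (SE 0.68, adjusted p = 0.0587) and 1.58 (SE 0.74, adjusted p = 0.0824) did not pass. Without treated H82 replicate 1, 8 of the 34 had a lower and 8 a higher response in H82 (46.7% and 14.4% of all genes), and without replicate 2, 14 and 2 (44.2% and 12.1%).

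**Figure D5:**
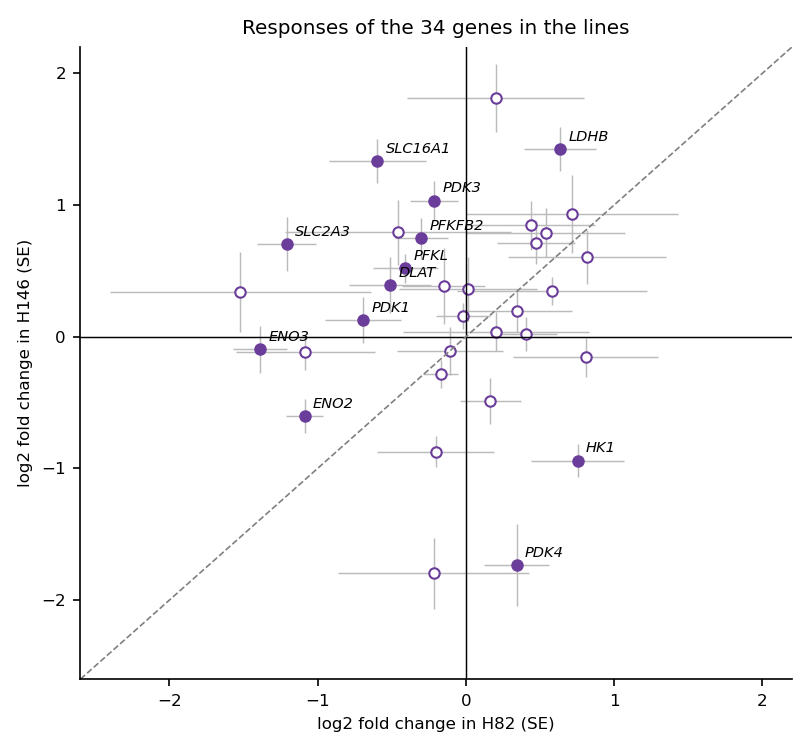
Log2 fold change of the 34 genes in H82 (x axis) and H146 (y axis), each with its SE. Filled and named points are the 12 whose responses differed between the lines (adjusted p under 0.05), and the dashed line marks equal responses; HK1 and PDK4 lie below it, the other 10 above.

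The neighbouring pathways were counted from 10 lists, and a gene named for a line is the one with the largest call in its direction, with its log2 fold change and SE. For comparison with these counts, 45.5% of all tested genes were lower and 13.1% higher in H82, and 15.5% and 32.5% in H146. With the median of ratios, the shares were 32.9% lower and 24.2% higher in H82 and 25.1% and 21.3% in H146. Among other isozymes of glycolysis and lactate steps, 2 of 11 tested genes were lower and 3 higher in H82 (1 and 6 with the median of ratios), and 3 of 8 lower and 5 higher in H146 (3 and 4). In H146, ADPGK, which phosphorylates glucose with ADP in place of ATP, rose (1.17, SE 0.24). Of other sugar and lactate carriers, 3 of 7 were lower and 0 higher in H82 (0 and 1 with the median of ratios, 4 and 1 at an unadjusted p under 0.05), and 3 of 12 were lower and 3 higher in H146 (3 and 2), where the sodium-glucose carrier SLC5A1 fell (-1.54, SE 0.19). The lactate carrier SLC16A8 was lower in H82 (-0.99, SE 0.28), a call lost with the median of ratios and without treated replicate 2 or 3, and higher in H146 (1.54, SE 0.27). Around pyruvate entry into mitochondria, 3 of 7 were lower and 2 higher in H82 (1 and 3 with the median of ratios), with PDPR, a regulator of the pyruvate dehydrogenase phosphatase, at -1.38 (SE 0.17) and the pyruvate carrier subunit MPC2 at 1.52 (SE 0.21). In H146, 1 of 7 was lower, the other carrier subunit MPC1 (-0.77, SE 0.20), and 1 higher, the phosphatase PDP1 (1.17, SE 0.23), which opposes the PDK kinases (3 and 1 with the median of ratios).

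In the citric acid cycle, 0 of 17 genes were lower in H82 by limma (1 at an unadjusted p under 0.05) and 8 higher, led by IDH2 (1.31, SE 0.25), and the median of ratios gave 14 higher genes. Over all genes, 45.5% were lower and 13.1% higher in H82, and 15.5% and 32.5% in H146. In H146, 6 of 17 were lower, led by IDH3G (-0.81, SE 0.11), and 1 higher, SDHC (0.63, SE 0.15), and 9 and 0 with the median of ratios. Of the pentose phosphate genes, 0 of 8 were lower in H82 (0 at an unadjusted p under 0.05) and 4 higher, where the median of ratios gave 8 higher. In H146, 3 of 7 were lower, led by transketolase TKT (-1.09, SE 0.22), and 1 higher (4 and 0 with the median of ratios). The lactonase PGLS had the largest rise of this list in both lines (1.03, SE 0.22 in H82 and 0.45, SE 0.12 in H146), a call that H146 lost under the median of ratios. Of the shuttles that carry cytosolic reducing equivalents, 1 of 8 was lower, SLC25A13 (-0.82, SE 0.29), and 3 higher in H82, led by GPD1L (1.68, SE 0.20), where the median of ratios gave 0 and 4. The SLC25A13 call stood at the threshold and was lost without any 1 untreated library. In H146, 4 of 8 were lower, led by GOT2 (-1.21, SE 0.14), and 2 higher, led by SLC25A11 (0.77, SE 0.18), against 4 and 0 with the median of ratios. In the glycogen and hexosamine branches, 5 of 14 were lower and 2 higher in H82 (3 and 6 with the median of ratios), and 6 of 13 lower and 5 higher in H146 (7 and 4). There the glycogen primer GYG1 rose (3.42, SE 0.23) in H82, and the branching enzyme GBE1 fell (-1.27, SE 0.28) and glycogen synthase GYS1 rose (1.60, SE 0.28) in H146.

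Among HIF genes and their regulators, 4 of 8 were lower and 0 higher in H82 (4 and 0 at an unadjusted p under 0.05, 2 and 2 with the median of ratios), with the prolyl hydroxylase EGLN2 at -1.38 (SE 0.24). Over all genes, 45.5% were lower and 13.1% higher in H82, and 15.5% and 32.5% in H146. In H146, 2 of 10 were lower and 5 higher (2 and 2 with the median of ratios), with EPAS1 (HIF-2 alpha) at -0.90 (SE 0.14) and EGLN1 at 1.33 (SE 0.24). Hypoxia targets outside glycolysis went both ways in each line. In H82, 5 of 20 were lower and 2 higher (2 and 6 with the median of ratios), with VEGFA at -1.51 (SE 0.20) and STC2 at 1.76 (SE 0.52), the latter lost without any 1 untreated library. In H146, 5 of 19 were lower and 6 higher (5 and 5), with NDRG1 at -1.98 (SE 0.37) and LOX at 2.83 (SE 0.30). Of glucose-sensing and MYC-type regulators, 5 of 11 were lower and 1 higher in H82 (2 and 2 with the median of ratios), where the glucose-responsive factor MLXIPL fell (-2.06, SE 0.39) and ESRRA rose (0.76, SE 0.20). In H146, 2 of 10 were lower and 3 higher (4 and 3 with the median of ratios), and MYCN fell (-1.25, SE 0.19). TXNIP, which curbs glucose uptake and is induced by glucose, rose in H146 from 5.75, 9.32 and 4.48 TPM to 189, 201, 168 and 164 TPM (4.64, SE 0.21), more than any of the 34 genes. In H82 it measured 298, 333 and 310.5 TPM untreated and 11.6, 152 and 119.7 TPM treated, with each treated library below each untreated one, and its log2 fold change of -2.35 (SE 0.88, adjusted p = 0.0531) missed the threshold in limma.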

How the data were processed

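Reads were trimmed with Trim Galore 0.4.4, per the labels, mapped to hg38 and counted per gene with STAR and the GENCODE v28 annotation by the authors, who compared groups with DESeq2 and deposited 1 table of TPM per line. Each column of these deposited TPM values sums to 1000000. How gene length was taken is not given in the sources used here, and the read depth is unknown, so no counting interval is given. Groups were taken from the sample titles.

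Each line was fitted with limma 3.58.1 in R 4.3.3 (lmFit, then eBayes with trend) on log2(TPM + 1), which understates changes of low genes, keeping genes that reached 1 TPM in 3 or more libraries. Tests were two-sided, p-values were adjusted over the whole fit by Benjamini-Hochberg, and calls needed an adjusted p under 0.05. The lines were compared by the interaction term over 13 libraries. The same code was run on simulated data with independent noise per gene and a small set of changed genes. Shifts shared by many genes of a library were not simulated. Alternatives were a pseudocount of 0.1, no filter, a mean TPM above 2, median-of-ratios or quantile scaling, mitochondrial genes left out, a replicate block, eBayes without trend, library weights and each library left out. Means are given with SD. All 34 genes are named by role, and in each of 10 companion lists the largest rise and fall past the threshold in each line, except some that are not reported here. The members and lists were chosen with earlier results of these data known. Positions are from GENCODE release 44 (hg38) and promoters from RefSeq. Plots were drawn with matplotlib 3.10.9. Chromatin data of the study were not analysed here.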

Additional observations from a re-analysis of the deposited data

Results flagged for a closer look

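The response differed between the lines, by the interaction test in limma, for 12 of the 34 genes. Over all 24374 genes, 46% had a lower and 13.3% a higher response in H82 than in H146. With the median of ratios, PFKL, ENO2, ENO3, LDHB, PFKFB2, DLAT and PDK1 no longer differed. The differences (H82 minus H146, log2 scale) were -1.91 for SLC2A3, 1.70 for HK1, -0.93 for PFKL, -0.49 for ENO2, -1.29 for ENO3, -0.79 for LDHB, -1.93 for SLC16A1, -1.05 for PFKFB2, -0.90 for DLAT, -0.82 for PDK1, -1.25 for PDK3 and 2.08 for PDK4. DLAT stood at the threshold, with an adjusted p of 0.0498.

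Among the 4 treated H146 libraries, 3 of the 34 genes had 1 library far from the others relative to their range. The lowest library of GPI held 162 TPM, the highest of PFKFB2 14.0 TPM and the highest of PDHA1 98.5 TPM. About 1 in 20 groups would be picked out in this way by chance, and groups of 3 libraries were not examined.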

How the results depend on the processing

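Scaling between libraries and single libraries set the counts in H82. Lower genes among the 34 numbered 6 with quantile normalization, 6 without mitochondrial genes and 5 with library weights, and 3 to 6 when 1 library was left out. Higher ones numbered 1 with a mean TPM above 2 or without trend, 8 under the median of ratios, 6 under quantile normalization, 12 with library weights and 0 to 14 when 1 library was left out. The median of ratios together with leaving out treated replicate 1 or 2, settings chosen after seeing the data, gave 24 and 5. Over all 19770 genes in H82, 4859 were lower and 5256 higher with quantile normalization, 4793 higher with the median of ratios, and 10478 lower and 3975 higher with library weights. Without mitochondrial genes, 9914 of 19751 were lower. A mean TPM above 2 gave 2351 higher of 16687, and the fit without trend 2510 of 19770. With the combined settings, 5950 were higher without replicate 1, and 4052 were higher and 5521 lower without replicate 2. Leaving out 1 library gave 4291 to 9957 lower and 1676 to 3503 higher, of 16364 to 19237 genes tested. In H146, 4917 genes were lower and 4165 higher with the median of ratios, 4806 were lower with library weights, and leaving out 1 library gave 1812 to 3729 lower. Among the 34 in H146, 9 were higher with the median of ratios and 9 to 17 when 1 library was left out, where 4287 to 7480 of all genes were higher. The 12 differences between the lines became 19 with library weights, where 12988 of all 24374 genes had a lower and 4165 a higher response in H82. Signs reversed for the difference of ENO2 under the median of ratios (0.32) and of PFKFB2 with quantile normalization (0.0755), and in H82 for SLC16A8 with quantile normalization (0.15) and SLC25A13 with the median of ratios without treated replicate 1 (0.0158). The cause was not tested. With the replicate number as a block, 4 of the 34 were lower and 0 higher in H82, 6 of 33 tested were lower and 7 higher in H146, and 9 differed between the lines. Over all genes, this block gave 8625 lower and 2333 higher of 19770 in H82 and 2416 and 4684 of 19018 in H146. Between the lines it gave 10254 with a lower and 2848 with a higher response in H82, of 24119. The labels do not say whether libraries of the same number were paired. Deviations from the group means correlated between -0.04 and 0.03 in H82 and between -0.14 and 0.01 in H146. With so few libraries these values cannot decide whether they were paired. The read depth is unknown, so how far it limits low genes such as SLC2A3 in H146 was not tested.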
